A study of Mus musculus with 36 samples.

Results

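The liver transcriptome of WT/Y657* mice was compared with that of wild-type (WT) mice after refeeding. The comparison took every library labelled as refed liver, 6 from mice carrying the Pik3r1 Y657* allele and 6 from WT mice, which is 12 of the 36 libraries sequenced. All mice were C57Bl/6J and 16 weeks old, had eaten chow, and were fasted for 16 h and then refed chow for 6 h before the liver was frozen. The labels give the genotype of the mutant mice only as the human Y657X mutation. The study describes a germline knock-in, made with a LoxP-flanked neomycin cassette and present in all tissues rather than in hepatocytes alone. Its figure legends give the mice of its liver fasting and refeeding work as males, the mutants being heterozygotes. The sex and heterozygosity of these 12 mice are taken from there. The other libraries came from further mice of both genotypes that were fed ad libitum or fasted for 16 h without refeeding, 6 of each genotype in each state, and they entered only where a genotype difference was set against that in another state. The mouse numbers of the refed animals fall into a lower and a higher series, each with 3 mice of each genotype, and the series was a term in the model. The question was which liver transcripts differ between the genotypes once insulin and nutrients have returned after a fast.

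Pik3r1 encodes p85α, p55α and p50α, the regulatory subunits that hold the p110 catalytic subunits of phosphoinositide 3-kinase (PI3K) stable and bring them to the insulin receptor substrates. In the liver, insulin acting through PI3K and AKT keeps FOXO1 out of the nucleus and so lowers gluconeogenic transcripts, raises the lipogenic transcription factor SREBP-1c, and promotes glycogen storage and protein synthesis. Refeeding after a fast is the state in which these responses run. The Y657* allele replaces the codon of a tyrosine in the C-terminal SH2 domain, which binds phosphotyrosine, with a stop codon.

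The codon of Y657 lies in exon 15 of the 16 exons of the Pik3r1 transcript encoding 724 residues, at chr13:101686222-101686224 of GRCm38 on the minus strand. The reference sequence of codons 648 to 666 is shown because it holds the altered codon, which is in capitals; it was read from the GENCODE M21 coding sequence and crosses an exon junction.
Pik3r1 codons 648 to 666: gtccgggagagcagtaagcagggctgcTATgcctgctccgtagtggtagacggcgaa
The counts summed both alleles and all exons, so they do not show whether the mutant transcript was present. Levels are given as CPM, which are counts scaled to the library total multiplied by its TMM normalization factor over all 36 libraries. Pik3r1 (ENSMUSG00000041417) was at 116, 124 and 139 CPM (lowest, median and highest of 6) in WT livers. It was at 128, 152 and 166 CPM in WT/Y657* livers, and the groups overlapped. The log2 fold change, here always WT/Y657* over WT, was 0.24 ± 0.077 (SE; 95% interval 0.074 to 0.40; adjusted p = 0.316 in edgeR's quasi-likelihood test).

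Total counts were 9544988 to 19542778 in the 6 WT libraries and 12780223 to 15055576 in the 6 WT/Y657* libraries, and 13069 genes passed the filter on low counts. Mice are named here by genotype and number, MT standing for WT/Y657*. Over all genes, MT_898, MT_810 and WT_828 lay farthest from the rest, MT_898 and MT_810 on a first principal component with 26.1% of the variance and WT_828 on the second with 13.1%. The mitochondrial ribosomal RNA mt-Rnr2 was at 0 in 1 WT and 2 WT/Y657* libraries and at 36148 to 59056 CPM in the other 9, and leaving out the mitochondrial ribosomal RNAs gave 3 calls, as with them. In the higher series 1 sequencing index followed the genotype, so index and genotype cannot be told apart there. The labels do not give litters or cages, and the p-values measure only the spread between these mice.

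Of 13069 genes, 3 passed an adjusted p of 0.05 (0.023%): Bag3 and Htra1 rose (0.0153%) and Gulo fell (0.00765%) in WT/Y657* livers. At an unadjusted p under 0.05 there were 1359 genes (10.4%), 4.96% of all genes being higher and 5.44% lower, and for 81 genes (0.62%) the 6 WT/Y657* values did not overlap with the 6 WT values, 32 higher (0.245%) and 49 lower (0.375%). The median log2 fold change over all genes was 0.0054, and 51.4% of genes were above 0. The list counts below are to be read beside these shares of all genes. Each series alone gave 0 calls in edgeR, with 5.36% of genes at an unadjusted p under 0.05 in the lower series and 8.08% in the higher, and no gene was called for a difference between the series, where 514 genes had an unadjusted p under 0.05.

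Bag3 (ENSMUSG00000030847, chr7:128523616-128546981) encodes a co-chaperone that binds the Hsp70 family and is a known target of the heat shock factor HSF1. Bag3 was at 14.5, 16.99 and 21.6 CPM in WT livers and at 24.9, 26.5 and 28.4 CPM in WT/Y657* livers. Every WT/Y657* mouse was above every WT mouse. The fold change was 1.53 (95% interval 1.34 to 1.74; log2 0.61 ± 0.089, SE; adjusted p = 0.0186 in edgeR), and the log2 value was 0.60 in the lower and 0.63 in the higher series.

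Htra1 (ENSMUSG00000006205, chr7:130936111-130985660) encodes a secreted serine protease that cuts extracellular matrix proteins. It was a low-abundance transcript in these livers, at 0.405, 0.671 and 0.961 CPM in WT and at 1.84, 2.09 and 2.64 CPM in WT/Y657* mice, again without overlap. The fold change was 3.10 (95% interval 2.15 to 4.48; log2 1.63 ± 0.25, SE; adjusted p = 0.0223 in edgeR), with log2 values of 1.705 and 1.57 in the lower and higher series.

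Gulo (ENSMUSG00000034450, chr14:65986786-66009207) encodes L-gulonolactone oxidase, the last enzyme of ascorbate synthesis, which mice keep and humans have lost. Gulo was at 236, 266 and 289 CPM in WT livers and at 170, 188 and 208 CPM in WT/Y657* livers, with every mutant mouse below every WT mouse. The fold change was 0.709 (95% interval 0.637 to 0.788; log2 -0.50 ± 0.073, SE; adjusted p = 0.0186 in edgeR), and the log2 values by series were -0.46 and -0.53. Gulo was also called in fasted livers, where the log2 fold change was -0.67 (adjusted p = 0.000863 in edgeR), while Bag3 had 0.13 (adjusted p = 0.598) and Htra1 0.67 (adjusted p = 0.102) there; the refed and fasted differences of Bag3, Htra1 and Gulo were not called as different.

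The 3 calls stood near the threshold. With 1 mouse left out in turn, Bag3 kept its call in 7 of 12 fits and ranged from 0.56 to 0.69 in log2, Gulo in 8 of 12 (-0.53 to -0.47) and Htra1 in 5 of 12 (1.54 to 1.84), and none of the 3 was called without WT_901, MT_817 or MT_897.

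**Figure D1:**
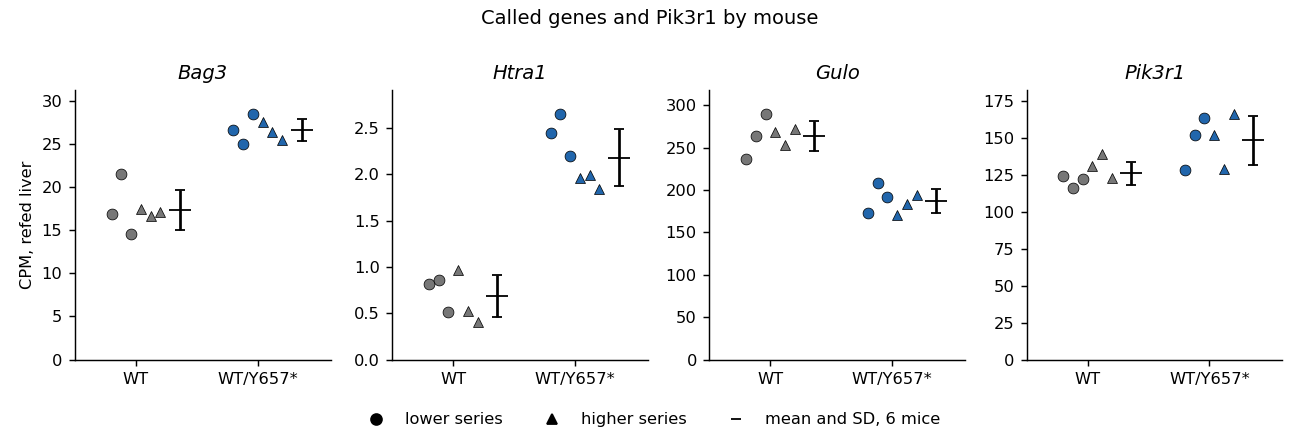
CPM (vertical axis, from 0) in refed liver for Bag3, Htra1, Gulo and Pik3r1 in WT and WT/Y657* mice. Each point is 1 mouse, circles for the lower and triangles for the higher series, and the bar is the mean and SD of 6 mice. The genotypes do not overlap for Bag3, Htra1 and Gulo, and they overlap for Pik3r1.

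The genes with the next smallest p-values did not pass the threshold and are given as values. Among those lower in WT/Y657* livers, Serpina7, which encodes thyroxine-binding globulin, was at 53.5, 60.04 and 73.7 CPM in WT and at 13.4, 24.4 and 38.4 CPM in WT/Y657* mice, without overlap (log2 -1.26, 95% interval -1.66 to -0.85, adjusted p = 0.0612 in edgeR). Igfbp2, a binding protein of insulin-like growth factors, was at 409, 522 and 642 CPM against 293, 318 and 467 CPM (log2 -0.66, adjusted p = 0.0612 in edgeR), and its groups overlapped through MT_810. The same adjusted p was found for the ubiquitin ligase Rnf125 (log2 -0.59), the vasopressin receptor Avpr1a (-0.82), the major urinary protein Mup2 (-1.28), whose reads can be shared with its near-identical family, the microRNA host Mir22hg (-0.54) and the small nucleolar RNA Snord104 (-1.28). The small nucleolar RNAs Snord22 (-1.20) and SNORA70 (-0.76), which come in related copies that short reads may not separate, had adjusted p-values of 0.0897 and 0.105. Smad7, the inhibitory SMAD of TGFβ signalling, had a log2 value of -0.55 (adjusted p = 0.114), the gene model Gm20417 had -0.45 (0.149) and the antiproliferative Tob1 had -0.41 (0.15).

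Among those higher in WT/Y657* livers, Glce, an epimerase of heparan sulphate synthesis, was at 32.2, 35.6 and 36.7 CPM in WT and at 42.2, 43.6 and 47.4 CPM in WT/Y657* mice (log2 0.33), and P4ha1, a prolyl hydroxylase of collagen, was at 10.9, 12.05 and 15.2 CPM against 16.1, 18.3 and 24.6 CPM (log2 0.62). Neither pair of groups overlapped, and both genes had an adjusted p of 0.0612 in edgeR, as did the Integrator subunit Ints6 (log2 0.51). Ppapdc1b had a log2 value of 0.49 (adjusted p = 0.0752), Camk2b, a calcium/calmodulin-dependent kinase subunit, 0.64 (0.0826), and 4 genes shared an adjusted p of 0.149: Dntt (1.84), the ephrin Efnb2 (0.99), Dopey2 (0.37) and the LIM protein gene Jub (0.57). P4ha1, Glce and Htra1 encode proteins that make or cut matrix components, and of 25 tested genes of extracellular matrix and endothelial secreted proteins 4 were at an unadjusted p under 0.05 in each direction, with a median log2 of 0.12. Esm1, an endothelial proteoglycan, was among them at 0.172 to 0.927 CPM in WT and 0.726 to 12.6 CPM in WT/Y657* livers, as was Angpt2, an endothelial ligand of the receptor Tie2 (log2 1.12). Htra1 is itself in that list and is 1 of the 4 higher genes, so the list's count is not independent of the Htra1 call.

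**Figure D2:**
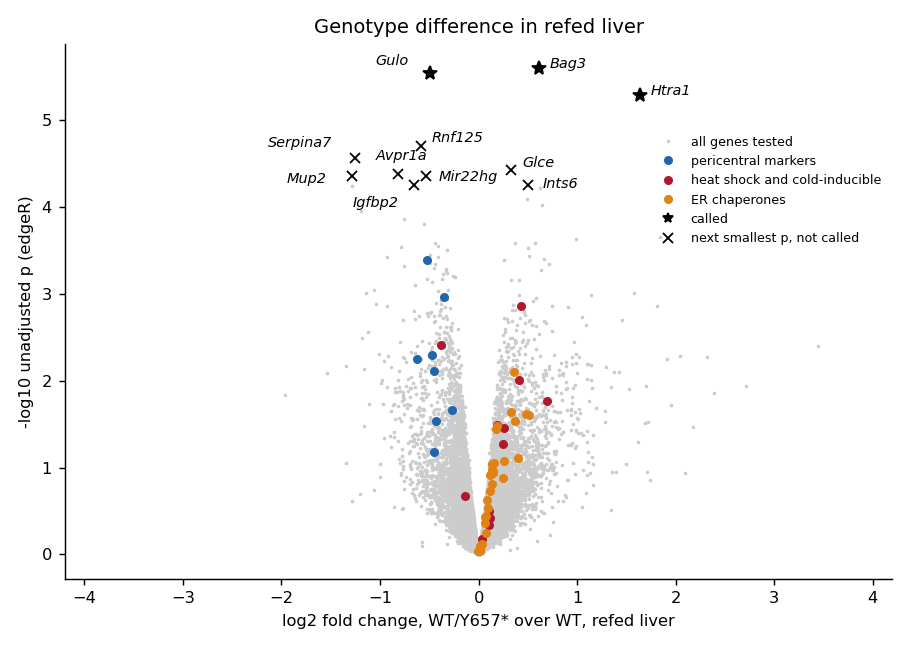
Log2 fold change of WT/Y657* over WT in refed liver (horizontal axis) against -log10 of the unadjusted p in edgeR (vertical axis) for 13069 genes, grey. Stars are the 3 called genes and crosses the genes with the next smallest p-values. All 8 pericentral markers (blue) lie left of 0, and 28 of 29 endoplasmic reticulum chaperone genes (orange) lie right of 0.

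Bag3 belongs with the heat shock genes by regulation, and a list of 13 tested heat shock and cold-inducible genes was read beside it. Of these, 5 were higher and 1 was lower at an unadjusted p under 0.05, 11 of 13 log2 values were above 0, and the median was 0.12. Dnajb1, the Hsp40 partner of Hsp70, was at 20.3, 24.3 and 29.8 CPM in WT and at 27.4, 34.8 and 39.3 CPM in WT/Y657* livers (log2 0.43, adjusted p = 0.252 in edgeR). The small heat shock protein gene Hspb1 was at 13.2, 18.8 and 25.2 against 22.8, 24.01 and 31.2 CPM (log2 0.41), the mitochondrial co-chaperonin Hspe1 had a log2 value of 0.19, and the Hsp110 gene Hsph1 had 0.26. The inducible Hsp70 gene Hspa1b, whose reads can be shared with the near-identical Hspa1a, was at 1.13 to 4.14 CPM in WT and 2.38 to 6.20 CPM in WT/Y657* livers (log2 0.70). Cirbp, which is induced by cold, had the opposite sign (-0.39). The median of the list was 0.22 in the lower series and -0.0028 in the higher series, while Bag3 itself was higher in both.

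HSF1 binds inverted repeats of GAA, and stretches around the start site are shown for Bag3 and for the listed heat shock genes Hspb1, Hspa1b and Hsph1, with any GAANNTTC or TTCNNGAA in capitals. They are RefSeq sequences on GRCm38.p6, given 5′ to 3′ on the gene's own strand: chr7:128523603-128523632, plus strand, for Bag3 (positions 21 to 50 from the start), chr5:135887789-135887848, plus, for Hspb1 (-130 to -71), chr17:34959304-34959363, minus, for Hspa1b (-125 to -66) and chr5:149636337-149636396, minus, for Hsph1 (-60 to -1).
Bag3: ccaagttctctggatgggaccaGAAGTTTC
Hspb1: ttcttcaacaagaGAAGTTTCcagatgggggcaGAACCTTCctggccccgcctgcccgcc
Hspa1b: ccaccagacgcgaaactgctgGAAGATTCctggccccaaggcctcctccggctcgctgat
Hsph1: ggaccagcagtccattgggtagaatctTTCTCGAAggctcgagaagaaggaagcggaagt
Both motifs read the same on either strand. In windows of 300 bases (250 before and 50 after the start), 15.1% of 32851 windows and 14.3% of the 9090 tested genes with a window held one. Of the 13 heat shock and cold-inducible genes 8 had a window, and 6 of these held the motif, among them Hspe1, Hspd1 and Dnaja1, while Dnajb1, Cirbp and Htra1 did not. A match describes the letters only, and binding was not measured. The list was drawn up as heat shock genes, so its share with the motif does not describe the genotype difference. The stretches shown all come from genes that hold the motif.

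Chaperones of the endoplasmic reticulum (ER), which fold secreted proteins and are induced by the unfolded protein response, had small positive values. Of 29 tested genes 7 were higher and 0 lower at an unadjusted p under 0.05, 28 were above 0, and the median log2 was 0.14. Manf was at 126, 137 and 174 CPM in WT and 140, 178 and 222 CPM in WT/Y657* livers (log2 0.36), Herpud1 of ER-associated degradation had 0.33, and the ER J-protein gene Dnajb9 had 0.49. The sensors were closer to 0, with log2 values of 0.14 for Atf6 (95% interval -0.022 to 0.30) and 0.087 for Ern1 (-0.062 to 0.24), and Xbp1 had 0.0094 (-0.18 to 0.20). The count was 3 without MT_898, 3 without WT_828 and 0 without both, where the median was 0.065.

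A group with 1 sign throughout was that of pericentral hepatocyte genes, which hepatocytes around the central vein express under Wnt signalling. All 8 tested markers were lower in WT/Y657* livers, 7 of them at an unadjusted p under 0.05, and the median log2 was -0.45, although none passed the adjusted threshold. Glul, the glutamine synthetase of the last hepatocytes before the central vein, was at 855.6, 972 and 1084 CPM in WT and 492, 735 and 944 CPM in WT/Y657* livers (log2 -0.45, 95% interval -0.76 to -0.14, adjusted p = 0.317 in edgeR). Cyp2e1, an ethanol-oxidizing cytochrome P450, was at 5941, 6971 and 7907 CPM against 2162, 5154 and 5397 CPM (log2 -0.63), and Rgn, a calcium-binding gluconolactonase, was at 629, 686 and 780 CPM against 365, 482 and 597 CPM (log2 -0.52). For Cyp2e1 and Rgn the genotypes did not overlap. The product of Rgn acts on the same pathway as Gulo, one step earlier in ascorbate synthesis. The Wnt target Axin2 (-0.47), the R-spondin receptor Lgr5 (-0.43), the glutamate transporter Slc1a2 (-0.35), Oat (-0.27) and Cyp1a2 (-0.45) had the same sign.

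Averaged over the 8 genes, each centred on its mean over the 12 mice, the log2 level was 0.068, 0.24 and 0.39 in WT mice (lowest, median and highest) and -0.75, -0.13 and 0.0020 in WT/Y657* mice, so the groups did not overlap. The summed level was 9342 to 11592 CPM in WT and 4239 to 8384 CPM in WT/Y657* livers. MT_898 and MT_810 were the lowest, and the median log2 over the list was -0.33 without MT_898, -0.42 without MT_810, -0.30 in the lower and -0.62 in the higher series. In bulk liver, fewer cells of a type and less RNA per cell cannot be told apart. Periportal markers had the other sign on balance, with 6 of 8 above 0, a median log2 of 0.26 and 1 at an unadjusted p under 0.05, Hsd17b13 (0.28). The urea cycle gene Ass1 was at 761, 960 and 1144 CPM in WT and 851, 1128 and 1957 CPM in WT/Y657* livers (log2 0.39), and MT_810 had the highest value. General hepatocyte markers had a median of 0.022 over 7 genes, and the livers carried the defining hepatocyte genes at a high level, Ttr at 3553 to 4924 CPM.

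**Figure D3:**
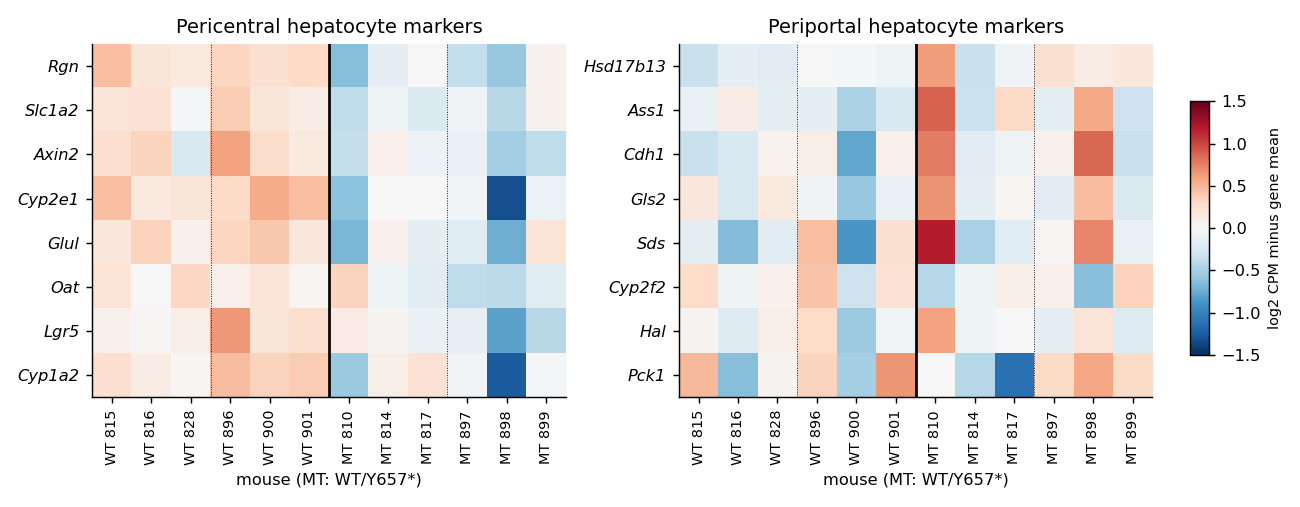
Log2 CPM minus the gene's mean over 12 mice (colour scale) for 8 pericentral and 8 periportal markers (lines) in each refed mouse (columns), WT left and WT/Y657* right of the solid line, with the series divided by dotted lines. Pericentral values are lowest in MT_898 and MT_810, and Ass1, Cdh1 and Sds are high in both.

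The transcripts of the PI3K complex itself differed little. Per kilobase of exon, Pik3r1 was the most abundant regulatory subunit in WT liver at 12.5 CPM per kb, before Pik3r2 at 4.99 and Pik3r3 at 0.569. Among catalytic subunits of class I, Pik3ca stood at 6.04 CPM per kb, Pik3cb at 1.85 and Pik3cd at 0.781. Pik3ca, encoding the p110α used by the insulin receptor, was at 48.3, 55.7 and 58.6 CPM in WT and 42.2, 49.1 and 54.2 CPM in WT/Y657* livers (log2 -0.17, 95% interval -0.31 to -0.030, adjusted p = 0.388 in edgeR), while Pik3r2 had 0.041 (-0.17 to 0.25). Over 20 tested genes of PI3K subunits and phosphatases 1 was higher (Pik3r1) and 1 lower (Pik3ca) at an unadjusted p under 0.05, and the median was 0.071. Of 32 genes from the insulin receptor to FOXO and mTOR, Insr (-0.19), Foxo3 (-0.22) and Tsc1 (-0.24) were lower and Mtor (0.16) was higher at that level, and the median was 0.011.

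The lipogenic transcripts that insulin induces showed no called difference. Srebf1, which encodes SREBP-1c, was at 137, 209 and 247 CPM in WT and 152, 188 and 273 CPM in WT/Y657* livers (log2 -0.026, 95% interval -0.34 to 0.28). Fatty acid synthase, Fasn, was at 371, 504.4 and 1045 CPM against 220, 409 and 975 CPM (-0.30, -1.04 to 0.44), and the desaturase Scd1 was at 485, 1038 and 1998 against 412, 1275 and 2952 CPM (0.20, -1.03 to 1.42). Both spread several-fold within each genotype, so these intervals include changes of over 1.5 times in both directions for Scd1 and downward for Fasn. Narrower intervals were found for Acaca (-0.12, -0.35 to 0.10), Acacb (0.12, -0.28 to 0.51) and the triglyceride synthase Dgat2 (-0.014, -0.20 to 0.17). Of 28 SREBP1 and lipogenic genes 9 were above 0, the median was -0.090, and the phosphatidate phosphatase Lpin2 (-0.45) was alone at an unadjusted p under 0.05.

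Cholesterol synthesis under SREBP2 had lower values in 22 of 25 genes with a median of -0.22, but 1 gene, Sc5d (-0.34), was at an unadjusted p under 0.05, and the median ranged from -0.36 to -0.079 with 1 mouse left out. Mvk (-0.26, 95% interval -0.84 to 0.31) and Nsdhl (-0.33, -1.30 to 0.64) spread widely, and Srebf2 had 0.068 (-0.15 to 0.29). In glucose use, the ChREBP gene Mlxipl had -0.060 (-0.31 to 0.19), and its target Pklr had -0.16 (-0.83 to 0.51). Over 26 genes of ChREBP and glycolysis the median was 0.053, with Pgam1 (0.27) and Pfkl (0.24) among 3 higher and 2 lower at an unadjusted p under 0.05. Glycogen genes had a median of -0.081 over 16, with the synthase Gys2 (-0.19) lower at that level.

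Genes that FOXO1 drives and insulin shuts off were not higher in refed WT/Y657* livers as a group: 7 of 20 were above 0, the median was -0.10, and 4 were lower and 0 higher at an unadjusted p under 0.05. The median of this list was 0.0046 in the lower and -0.15 in the higher series, and ranged from -0.13 to -0.019 with 1 mouse left out. G6pc, the last enzyme of glucose release, was at 109, 183 and 271 CPM in WT and 23.5, 78.7 and 192 CPM in WT/Y657* livers (log2 -1.16, 95% interval -2.21 to -0.11, adjusted p = 0.440 in edgeR). Bcl6, a repressor induced by fasting, was at 5.35, 48.7 and 78.3 against 5.26, 9.32 and 21.6 CPM (-1.96). Pck1 had -0.16 (-0.75 to 0.42), and Igfbp1, a FOXO1 target suppressed by insulin, was at 3.71 to 11.2 CPM in WT and 1.67 to 51.9 CPM in WT/Y657* livers (1.05, -1.02 to 3.12). Gluconeogenic genes had a median of -0.0023 over 24, with 1 gene at an unadjusted p under 0.05 in each direction, Pck2 (0.65) being the higher one.

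Fatty acid oxidation genes under PPARα were on balance lower, with 8 of 36 above 0 and a median of -0.11. At an unadjusted p under 0.05, 4 were lower and 0 higher. That is 11.1% of the list, beside 10.4% of all genes in either direction and 5.44% of all genes lower. Ppara itself was at 154, 179 and 203 CPM in WT and 119, 139 and 163 CPM in WT/Y657* livers (log2 -0.33, 95% interval -0.50 to -0.17, adjusted p = 0.171 in edgeR), and Eci2 (-0.26) and Cyp4a31 (-0.58, with close paralogs) were also lower at that level. Without MT_898 the median was -0.027. Bile acid synthesis and transport genes had 5 of 21 above 0, a median of -0.18 and 7 lower at an unadjusted p under 0.05, including Hsd3b7 (-0.27), the oxysterol hydroxylase Cyp7b1 (-0.57) and the uptake transporter Slco1b2 (-0.44), and without MT_898 the count was 2 and the median -0.081. Drug-metabolizing P450 and sex-biased genes had a median of -0.18 over 28, and circadian clock genes had -0.099 over 17, with Nr1d2 (-0.26), Cry2 (-0.32) and Per3 (-0.31) among 4 lower at an unadjusted p under 0.05. With 1 mouse left out, the median of the P450 list ranged from -0.32 to -0.10 and that of the clock list from -0.19 to -0.043, the latter with 1 gene lower at that level without WT_815 and 2 without MT_898.

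Several other hepatocyte functions had medians closer to that of all genes. Cytosolic ribosomal proteins had a median log2 of 0.037 over 78 genes and the respiratory chain 0.0093 over 74, each with 1 gene at an unadjusted p under 0.05. Apolipoproteins and lipoprotein handling had -0.040 over 28, and amino acid catabolism and the urea cycle 0.022 over 39. NRF2 antioxidant genes had 0.037 over 24, and the growth hormone and IGF axis -0.018 over 21. In that axis Igfbp3 (0.91) was higher, and Igfbp2 (-0.66) and the growth hormone receptor Ghr (-0.35) were lower, at an unadjusted p under 0.05. The median of amino acid catabolism turned to -0.079 without MT_810. Hepatokines had 0.067 over 22 and -0.066 without MT_810, and Lect2 was at 90.8, 99.9 and 108 CPM in WT and 53.2, 79.95 and 90.5 CPM in WT/Y657* livers, without overlap (-0.39). Ribosome biogenesis and Myc growth genes stood farther above, at 0.11 over 37 with 28 above 0 and 5 higher and 2 lower at an unadjusted p under 0.05, and Myc (-0.44, 95% interval -1.20 to 0.32), Mycn (-0.61, -1.45 to 0.22) and Rictor (-0.13, -0.28 to 0.013) were not called.

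Medians of the stress and inflammatory lists moved with the mice that stood apart. For ATF4 target genes of the integrated stress response the median was 0.43 over 26 genes, with 5 higher at an unadjusted p under 0.05, among them Ddit3, which encodes CHOP, at 5.31, 6.01 and 8.54 CPM in WT and 7.22, 11.3 and 30.2 CPM in WT/Y657* livers (1.37), Atf5 (1.01) and the folate enzyme Mthfd2 (1.70). The list's level was 1.04 in MT_810 and 0.96 in MT_898 and between -0.52 and 0.26 in the other 10 mice, and its median was 0.19 without MT_810 and 0.27 without MT_898. Immediate early genes had 0.35 over 21 and 0.13 without MT_898. Interferon γ response genes had 0.27 over 30 and 0.015 without MT_898, and acute phase genes had 0.18 over 30, -0.098 without MT_898 and 0.35 without WT_828, with levels of 1.25 in MT_898 and 1.09 in WT_828 and medians of -0.19 in the lower and 0.58 in the higher series. Type I interferon genes had 0.042 over 28 and -0.11 without MT_898, with -0.20 in the lower and 0.31 in the higher series. Glucocorticoid response genes had 0.12 over 16, and their median turned to -0.050 without MT_898, to -0.076 without MT_810 and to -0.049 in the lower series, with the glucocorticoid-induced Fkbp5 at 25.2, 42.0 and 54.5 CPM in WT and 53.6, 59.4 and 72.3 CPM in WT/Y657* livers (0.58). Cell cycle genes had 0.13 over 26 and 0.033 without MT_898, and the helicase subunit Mcm3 was at 2.496, 4.26 and 5.35 CPM against 5.95, 6.63 and 7.70 CPM, without overlap (0.71).

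Markers of other liver cells moved in part with MT_898. Kupffer cell and macrophage markers had a median log2 of 0.31 over 10 genes and 0.00057 without MT_898, with the scavenger receptor Marco alone at an unadjusted p under 0.05 (1.34). Stellate cell and fibroblast markers had 0.23 over 12, with Acta2 higher and Reln lower at that level, sinusoidal endothelial markers -0.034 over 11, and cholangiocyte markers 0.30 over 5. T and NK cell markers did not pass the filter on low counts in any of 8, B cell markers passed in 2 of 6 and neutrophil markers in 1 of 8, S100a9, which ranged from 0.296 to 16.2 CPM over the 12 livers. The part of these cells in the results above was not tested.

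**Figure D4:**
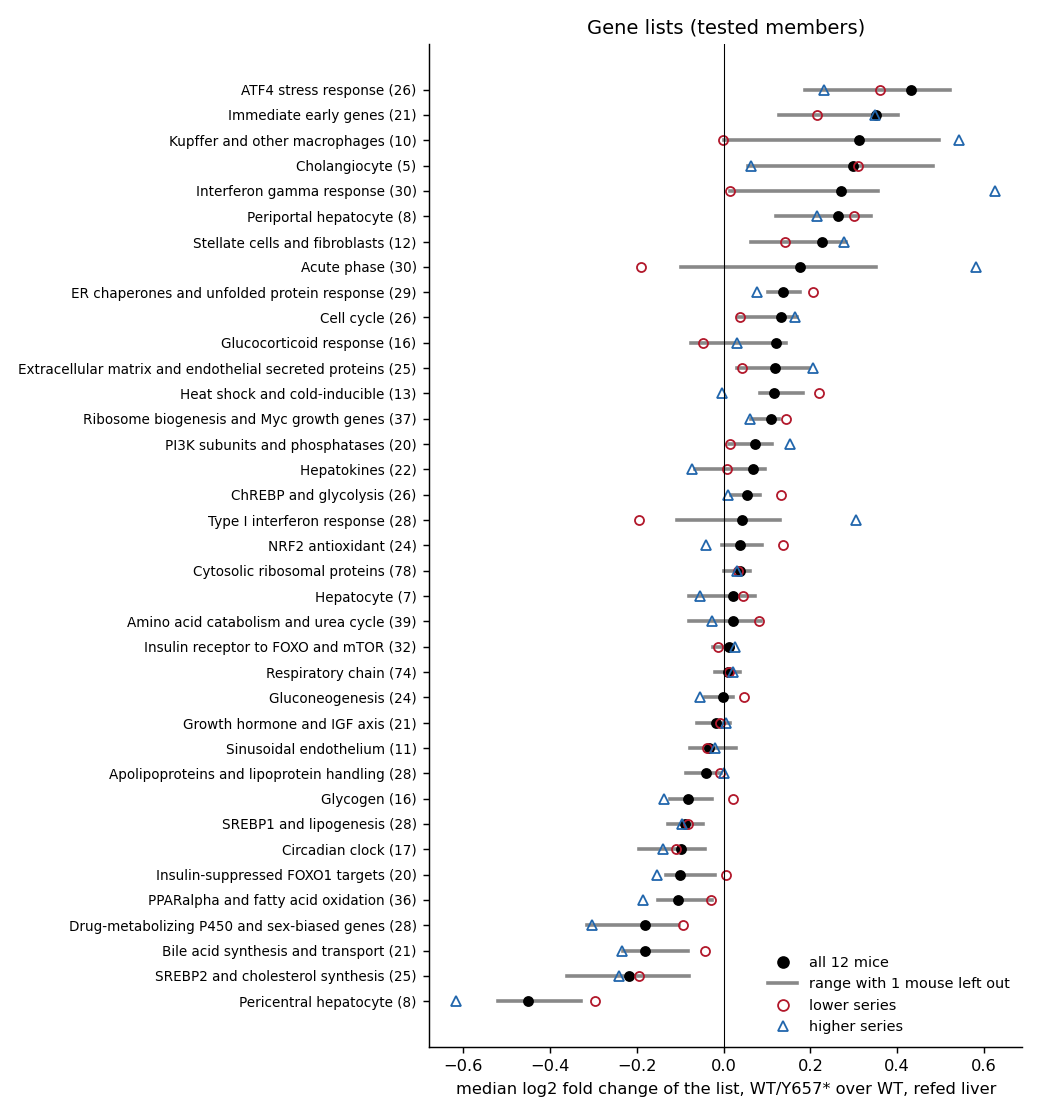
Median log2 fold change of WT/Y657* over WT in refed liver (horizontal axis) for each gene list, with the number of tested genes in parentheses. Filled points use all 12 mice, grey bars give the range with 1 mouse left out, and open circles and triangles are the lower and the higher series. The pericentral list, at -0.45, is below 0 in each series and with any 1 mouse left out.

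The fasted mice were other animals, and their numbers also fall into a lower and a higher set. The lower set overlaps in number with the lower refed series. The higher set lies above every refed number, so the series term there joins mice that may not share a cohort. In fasted livers the same comparison called 1729 of 12943 genes (13.4%). Of those, 1717 were tested in refed livers and 1181 (68.8%) had the same sign there, against 57.7% of all genes tested in both states, and 241 (14%) had the same sign at an unadjusted p under 0.05, against 7.26% of the 12747 genes tested in both. Their median absolute log2 fold change was 0.11 in refed livers, as was that of all genes, and 0.43 in fasted livers, where these genes had been selected by their calls. Gulo was the single gene called in both. The genotype difference itself differed between refed and fasted livers for 308 of 13604 genes (2.26%), 104 with a higher and 204 with a lower value in refed livers. Of the 1717, 267 were among those genes. The selection by fasted calls favours this overlap, because the same fasted values enter the difference.

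Ribosomal protein and respiratory chain genes were among the genes with a called difference between refed and fasted livers. Cytosolic ribosomal protein genes had a median log2 of 0.43 in fasted livers with 70 of 78 called, against 0.037 in refed livers, and for 28 the difference was called, as for Rpl41 (0.75 fasted, -0.056 refed, adjusted p of the difference = 0.00372 in edgeR). Respiratory chain genes had 0.26 in fasted livers with 40 called higher and 1 lower, against 0.0093, and 15 differences were called, as for Cox7b (0.60 fasted, -0.037 refed). Srebf1, which was called lower in fasted livers at -1.03, had a difference of 1.04 between the states (adjusted p = 0.0709 in edgeR), and Lpin2 had -1.01 (adjusted p = 0.0170). Pericentral markers were the contrary case, with a median of -0.75 and 5 of 8 called lower in fasted livers, -0.45 in refed livers, and 0 called differences. In fed livers their median was -0.55, with 0 of 8 called. The splicing kinase gene Clk1 (0.45 fasted, -0.24 refed) had the smallest p for a lower refed value (adjusted p = 0.00112 in edgeR), and the kinase gene Taok3 (-0.62 fasted, -0.023 refed) was among those with a higher one (adjusted p = 0.00570). Interferon-induced genes were also among the called differences, such as the antigen peptide transporter Tap1 (-0.69 fasted, 0.27 refed) and Irgm2 (-0.75 fasted, 0.37 refed).

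**Figure D5:**
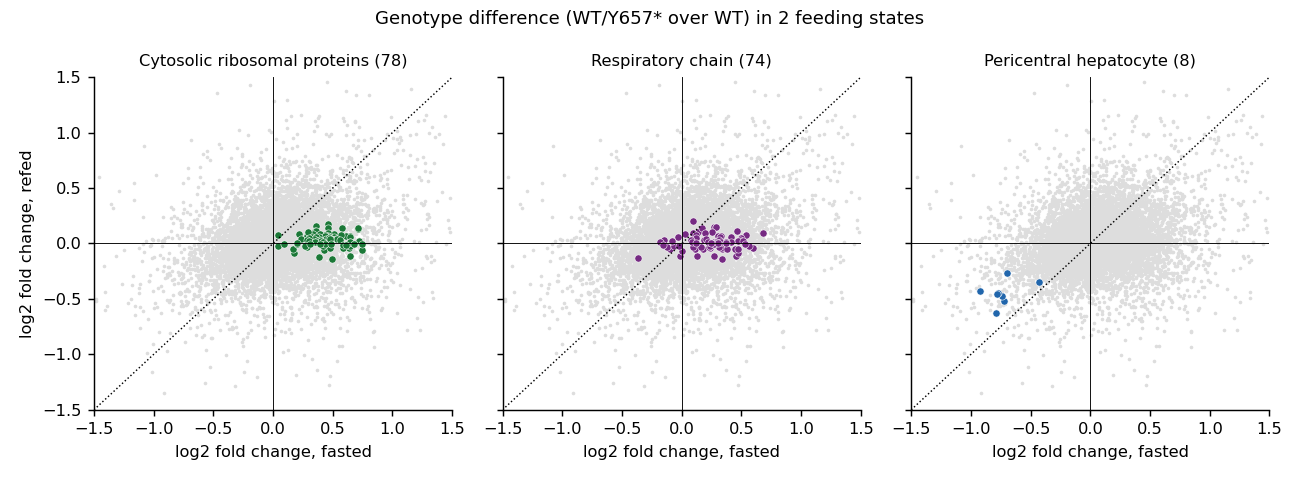
Log2 fold change of WT/Y657* over WT in fasted liver (horizontal axis) against that in refed liver (vertical axis). Grey points are all genes tested in both states, coloured points the list named above each panel, and the dotted line marks equal values. Ribosomal protein and respiratory chain genes lie right of 0 and close to 0 on the refed axis, and the 8 pericentral markers are negative on both axes.

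Against fed livers the genotype difference in refed livers differed for 25 of 13945 genes (0.179%), 18 higher and 7 lower, with no series term because the fed mice came from neither series and their genotype nearly followed the mouse number. Secretory pathway genes were among the higher ones: the ubiquitin ligase gene Syvn1 of ER-associated degradation had a log2 value of 0.51 in refed and -1.02 in fed livers (difference 1.54, adjusted p = 0.0271 in edgeR), and the ER protein gene Creld2 had 0.40 against -1.63 (difference 2.02). Of the ER chaperone list 3 differences were called, and the median of that list was -0.46 in fed livers. The gene with the smallest p was Mlx, the dimerization partner of ChREBP, with 0.20 in refed and -0.40 in fed livers (difference 0.59, adjusted p = 0.00433 in edgeR). Hspb1 (difference 1.23, adjusted p = 0.0405) and the Hsp110-related Hspa4l (difference 0.91) had higher refed values too, and the gluconeogenic Fbp1 (-0.054 refed, 0.74 fed) and the antioxidant regulator Nfe2l2 (-0.12 refed, 0.40 fed) had lower ones.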

How the data were processed

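Liver RNA was sequenced by the authors from a stranded total RNA kit as single reads of 50 bases. The deposited table gives each mouse 1 estimated count for each of 38283 genes, made by the authors without normalization. Per the labels, Cuffdiff aligned reads and featureCounts counted them, with versions not given in the sources used here. The labels list mm9, but gene positions in the table match GRCm38, which was used. Fractions, present in 3.64% of counts above 0, were rounded to whole numbers. A deposited table of fitted means per condition was not used.

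Genes were kept by filterByExpr (13069) and scaled by TMM, and glmQLFit with genotype and series was tested two-sided with glmQLFTest (edgeR 4.0.16, R 4.3.3), adjusted by Benjamini-Hochberg over all genes, threshold 0.05. Lists are described by counts at an unadjusted p under 0.05 and by medians. Differences between states were interaction terms over 24 libraries with series (fasted) or over 36 without (fed). Levels are CPM. The script was tested on simulated data. Named genes were the calls, the genes with the next smallest p at a mean of at least 1 CPM up to 24, PI3K subunits, up to 3 genes per list with the smallest p, up to 5 per direction for differences between states, and liver transcripts named in the study, a few of which are not reported here. Members and lists were chosen with earlier results of these data known. Alternatives included limma 3.58.1 and DESeq2 1.42.0.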

Additional observations from a re-analysis of the deposited data

Results flagged for a closer look

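In the groups of 6 refed mice, the gap between the most extreme mouse and its neighbour was compared with the range of the group, both in log2 CPM. It exceeded the critical value of Dixon's test in 6 of 164 groups (3.66%), and chance alone gives about 1 in 20 groups. The ratio was 0.714 for Igfbp2 in WT/Y657* livers, where MT_810 was at 467 CPM and the next at 335, and 0.662 for Cirbp, where MT_810 was again highest. It was 0.639 for Lgr5 in WT livers, where WT_896 was highest, and 0.743 for Rictor, where WT_828 was lowest. For Pik3cd, a PI3K catalytic subunit of leukocytes, it was 0.73 in WT livers with WT_828 highest and 0.671 in WT/Y657* livers with MT_898 highest.

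The genotype difference in refed livers differed from that in fasted livers by an interaction test for several named genes, given here as the refed minus the fasted log2 fold change. It was higher in refed livers for Taok3 (0.62), Acy3 (0.84), Irf2bpl (0.64), Sphk2 (0.58) and Glce (0.37). It was lower for Clk1 (-0.67), the antisense gene Gm16573 (-1.43), Yod1 (-1.03) and Gm20417 (-0.99), and for 5 small nucleolar RNAs: SNORA63 (-1.24), SNORA14 (-1.48), Snord104 (-1.73), Snord22 (-1.64) and SNORA70 (-1.17).

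The refed minus the fed log2 fold change was higher for Mlx (0.59), the zinc transporter gene Slc39a14 (0.86), Syvn1 (1.54), Hspa4l (0.91), Creld2 (2.02) and Hspb1 (1.23), and lower for Rnf125 (-1.12), Nfe2l2 (-0.53), Hyi (-1.01), Klhdc8b (-1.21) and Fbp1 (-0.80).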

How the results depend on the processing

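The 3 calls (2 higher, 1 lower) became 49 (21 and 28) with the likelihood ratio test, 68 (28 and 40) with DESeq2, 30 (13 and 17) without a filter on low counts, 12 (6 and 6) with a fit over 24 libraries, 9 (4 and 5) with length and GC offsets, 6 (5 and 1) with library size alone, 4 (3 and 1) over all 36 libraries, 2 (1 and 1) with a minimum of 10 counts, and 0 (0 and 0) within either series, where 3 mice stood against 3. With 1 mouse left out they ranged from 0 to 11, 0 to 6 higher and 0 to 5 lower, with 11 without WT_816, 8 without WT_900 and 5 without MT_810. DESeq2 size factors, limma-voom and omitting the series each gave the same 3 genes. Over all 36 libraries the 4 calls were Ddit3, Htra1, Ints6 and Kit, so Bag3 and Gulo were not called there. With the minimum of 10 counts the calls were Bag3 and Gulo, without Htra1. Alternatives chosen after seeing the data gave 3 without the mitochondrial ribosomal RNAs and 4 (2 and 2) without MT_898 and WT_828, namely Bag3, Lcn2, Gulo and Avpr1a. The likelihood ratio test gave 53 differences against fed livers in place of 25, and 1 between the series in place of 0, and the 308 differences against fasted livers changed by less than 1.5 times. The cause was not tested. Scaling by library size alone moved the median of all genes to 0.0721 and raised the ER chaperone genes at an unadjusted p under 0.05 from 7 to 18. The log2 value of Pik3r1 ranged from 0.18 to 0.30 and was called in no setting. Of 183 named genes 157 kept their sign in each of the 27 settings that gave them a value, and the sign changes of the others were all at an unadjusted p above 0.05. Depth limits Htra1 most among the calls, at 0.405 to 2.64 CPM. No paired analysis was possible because the labels give mouse numbers that no 2 groups share.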
